A study of Homo sapiens with 12 samples.

Results

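Prostaglandins are made from arachidonic acid in a short chain of enzymes. Genes of that chain, of 2 receptors and of 1 inactivating enzyme, 9 in all, were followed here across 4 treatments of a breast cancer cell line. The members, set by name, were PLA2G4A, PTGS1, PTGS2, PTGES, PTGES2, PTGIS, PTGER2, PTGER4 and HPGD. Each of the 9 was found on the array, and each had exactly 1 probe set that carries its symbol alone, among 22392 genes with such a probe set and 53617 probe sets in all. Cells of MDA-MB-231, a triple-negative line with mesenchymal features, had been exposed for 48 hours to JQ1 (1 µM) together with mocetinostat, to mocetinostat alone, to JQ1 alone, or to the vehicle DMSO. The sample labels give the mocetinostat dose as 3.17 µM and the study's methods as 3 µM. JQ1 displaces BET proteins, readers of acetylated histones, from chromatin, and mocetinostat inhibits class I histone deacetylases. Each treatment had 3 replicates by the labels, described in the study's methods as independent biological replicates. Their RNA was hybridized to 12 arrays of the type Affymetrix Human Gene 2.1 ST. The treatment in the source name, which the titles share, was used for each array, because the free-text description of most arrays names another treatment. All arrays come from this single cell line.

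In the pathway, cytosolic phospholipase A2 releases arachidonic acid from membranes, and the cyclooxygenases turn it into prostaglandin H2. Terminal synthases then make the individual prostanoids, among them prostaglandin E2, which acts on its own cell and on neighbours through the EP receptors. The enzyme 15-hydroxyprostaglandin dehydrogenase oxidises prostaglandin E2 and so ends its action. In many epithelial tumours the inducible cyclooxygenase PTGS2 is high and the dehydrogenase HPGD is low.

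The log2 signals were those the authors deposited after RMA summarization, with array medians of 3.58 to 3.66. Arrays of the same treatment correlated at r = 0.986 to 0.991 over all probe sets, and arrays of different treatments at 0.943 to 0.978. All 8 measured marker genes of MDA-MB-231 were above background in DMSO (mean log2 signals 4.13 to 12.2). So were 6 of 9 epithelial or luminal markers, without CDH1, ESR1 and PGR, and 3 of 7 markers of blood, endothelial and muscle cells (CD14, KDR and DES), without PTPRC, CD3E, CDH5 and ACTG2. Background was taken as the 95th percentile of 358 olfactory receptor genes, which lay at 3.66 with the combination, 3.57 with mocetinostat, 3.66 with JQ1 and 3.55 with DMSO. Of the 9 epithelial markers, 0 were called higher and 2 lower with the combination (GATA3 and EPCAM), 2 higher and 1 lower with mocetinostat, and 0 higher and 2 lower with JQ1 (EPCAM and CLDN7). With mocetinostat CDH1 (6.31, against 3.53 with DMSO) and ESRP1 (4.66, against 3.60) were higher. GATA3 was at 4.66 with the combination and 4.96 with mocetinostat, against 6.68 with DMSO. Of the 7 markers of other cell types 0 were called with the combination, CD14, KDR and DES were higher with mocetinostat, and CD14 was lower with JQ1. Of the 8 markers of the line itself 4 were called lower with the combination and 2 with mocetinostat. The part of these shifts in the results below was not tested. A probe set was called higher or lower where limma gave an unadjusted p under 0.001 and the change was at least 2-fold, and adjusted p values are Benjamini-Hochberg values over all probe sets. Each signal is relative to the other RNA on its array, so less of a transcript per cell and fewer cells that make it cannot be told apart.

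The 9 genes lie on 6 chromosomes, and PTGS2 and PLA2G4A are neighbours on chromosome 1. PTGS2 lies at chr1:186671791-186680423 and PLA2G4A at chr1:186828949-186988981 (GRCh38.p14, RefSeq), separated by 149 kb that hold 1 annotated gene, PACERR, and 0 protein-coding genes. RefSeq start sites gave promoter windows for 8 of the 9 genes, 12 windows in all. The 250 bases before the start are shown for PTGS2 and PTGER2, the 2 members that moved the most, for PTGER4, the only member called lower with JQ1, and for HPGD, the only member above background whose mean was highest with the combination. Capitals mark matches, on either strand, to the motifs of NF-κB (GGGANTNNCC), C/EBP (TTNNGCAAT), the CRE core (TGACG), the TATA box (TATAAA) and the GC box (GGGCGG), and no matches overlapped in these 4 windows.
PTGS2: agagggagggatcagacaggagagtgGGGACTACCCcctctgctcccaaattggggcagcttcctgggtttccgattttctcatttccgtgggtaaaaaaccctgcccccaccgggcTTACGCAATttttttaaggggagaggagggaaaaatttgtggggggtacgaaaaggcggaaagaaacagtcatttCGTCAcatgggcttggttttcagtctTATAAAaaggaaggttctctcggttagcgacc
PTGER2: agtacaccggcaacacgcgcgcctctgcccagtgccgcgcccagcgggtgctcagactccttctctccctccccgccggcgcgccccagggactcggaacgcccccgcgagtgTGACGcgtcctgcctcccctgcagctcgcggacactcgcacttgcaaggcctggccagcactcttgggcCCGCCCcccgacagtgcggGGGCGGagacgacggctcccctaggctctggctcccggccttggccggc
PTGER4: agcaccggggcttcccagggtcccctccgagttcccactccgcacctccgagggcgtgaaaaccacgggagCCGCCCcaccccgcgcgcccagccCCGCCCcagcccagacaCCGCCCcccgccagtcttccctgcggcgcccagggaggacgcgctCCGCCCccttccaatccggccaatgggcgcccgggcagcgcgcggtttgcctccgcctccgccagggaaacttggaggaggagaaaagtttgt
HPGD: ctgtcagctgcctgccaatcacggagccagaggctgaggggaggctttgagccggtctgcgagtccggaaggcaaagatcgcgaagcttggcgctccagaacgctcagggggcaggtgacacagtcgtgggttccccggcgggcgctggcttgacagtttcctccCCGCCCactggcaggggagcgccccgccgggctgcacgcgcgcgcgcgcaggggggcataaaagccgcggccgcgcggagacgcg
The positions are chr1:186680424-186680673 (minus strand), chr14:52314062-52314311 (plus strand), chr5:40679665-40679914 (plus strand) and chr4:174522489-174522738 (minus strand), the last being 1 of 2 windows of HPGD. The PTGS2 window held 1 match each to the NF-κB, C/EBP, CRE and TATA motifs and 0 GC boxes, with a GC content of 50.4%. The other windows shown were richer in G and C, at 74.0% for PTGER2, 72.8% for PTGER4 and 70.8% for HPGD, and held 2, 4 and 1 GC boxes. PTGER2 also had 1 CRE core. The HPGD window that is not shown (chr4:174522894-174523143, minus strand) differed. Its GC content was 42%, under that of PTGS2, and it held 1 CRE core and 0 GC boxes. Among the 34941 distinct promoter windows of this length, 4.46% held the NF-κB motif, 2.04% the C/EBP motif, 21.2% the CRE core, 10.8% the TATA box and 42.5% the GC box. No window of the other 7 matched members held the NF-κB or C/EBP letters. The matches describe the sequence and say nothing about binding.

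Mocetinostat alone raised most of the 9 genes, among them the receptor gene PTGER2 and HPGD, whose enzyme inactivates prostaglandin E2. Of the 9 genes, 6 were called higher than in DMSO and 0 lower, where 4.66% of all probe sets were called higher and 3.14% lower. Counted over genes, 7.08% of 22392 were called higher and 5.5% lower. The gene shares were 7.06% and 8.11% with the combination, and 2.14% and 4.51% with JQ1. The median log2 change of the 9 genes was 1.24, against −0.02 over all probe sets. With the combination 4 of the 9 were called higher and 0 lower than in DMSO (all probe sets 5.23% and 4.63%), and the median was 0.76, against 0.01 over all probe sets. With JQ1 alone 0 were called higher and 1 lower (all probe sets 1.51% and 2.51%), with a median of 0.11 against 0.04. These 3 comparisons share the DMSO arrays. In the plot of signals by array the mocetinostat points stand above all others for PLA2G4A, PTGS1, PTGS2, PTGES, PTGER2 and PTGER4.

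**Figure D1:**
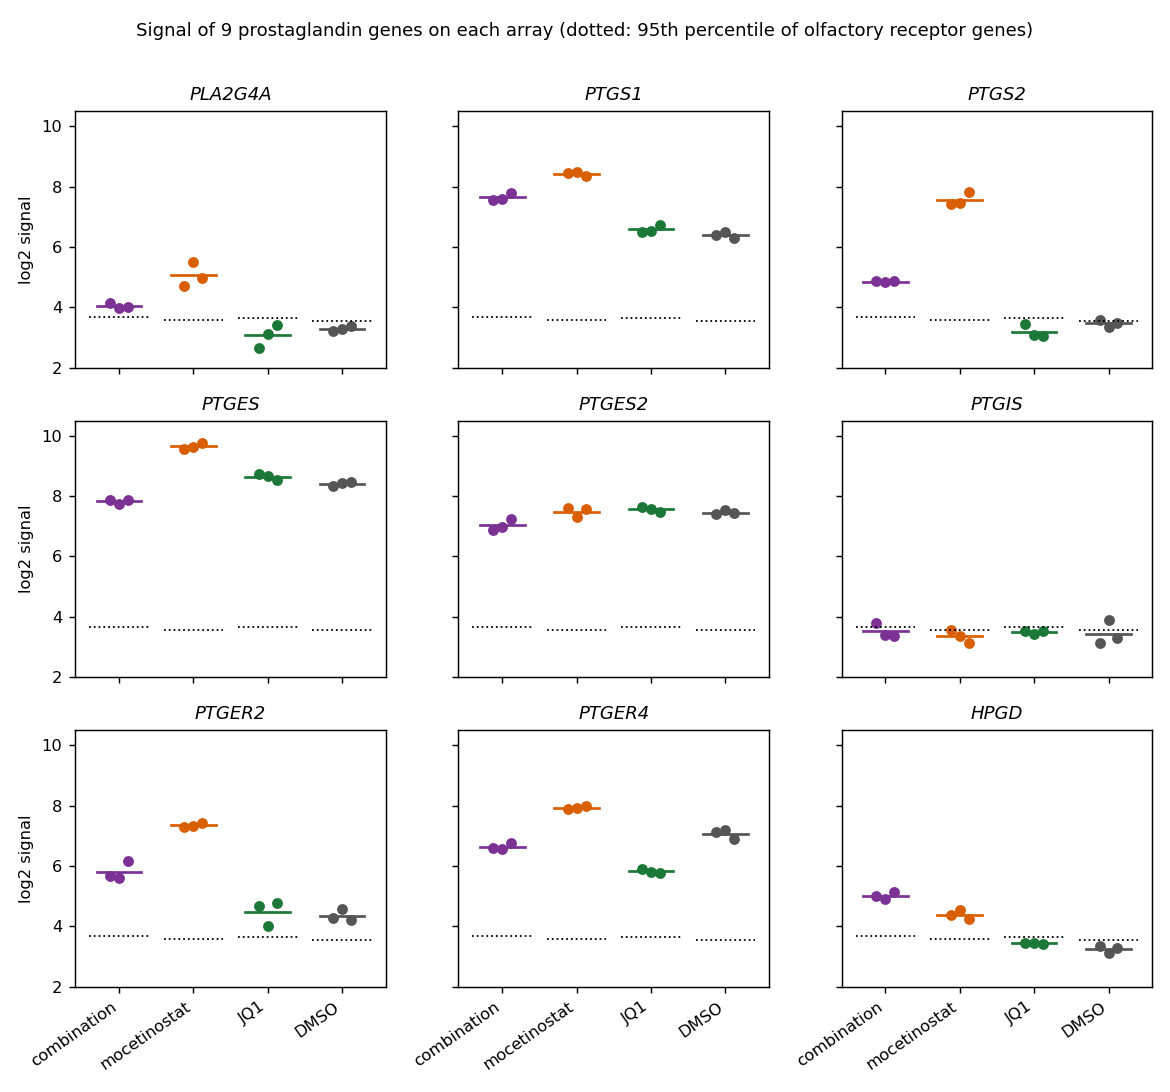
Log2 signal (vertical axis) of the 9 genes on each of the 12 arrays, by treatment (horizontal axis, 3 arrays each). Points are arrays, solid lines are treatment means and dotted lines are the 95th percentile of olfactory receptor genes in that treatment (3.55 to 3.66). PTGS2 lies at 7.41 to 7.83 with mocetinostat and at 4.83 to 4.86 with the combination, while PTGIS lies near the dotted line in every treatment.

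PLA2G4A, the cytosolic phospholipase A2 that starts the chain, was a dim probe set without mocetinostat. Its log2 signals were 4.14, 3.99 and 4.01 with the combination, 4.72, 5.49 and 4.96 with mocetinostat, 2.66, 3.11 and 3.43 with JQ1 and 3.20, 3.28 and 3.37 with DMSO. The mocetinostat arrays were above all others, the combination arrays came next, and the JQ1 arrays, spread widely, overlapped those of DMSO at or under background. Mocetinostat raised PLA2G4A 3.41-fold (log2 change 1.77, SE 0.21, limma adjusted p = 4.8e-05). The DMSO mean was under background, and with background in its place the log2 change was 1.51. The change of the combination against DMSO was 0.76 (adjusted p = 0.016), under 2-fold.

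PTGS1, the cyclooxygenase usually described as constitutive, was expressed in every treatment. Its signals were 7.56, 7.58 and 7.80 with the combination, 8.46, 8.47 and 8.36 with mocetinostat, 6.50, 6.54 and 6.74 with JQ1 and 6.41, 6.48 and 6.30 with DMSO. No pair of treatments overlapped. PTGS1 rose 4.09-fold with mocetinostat (2.03, SE 0.10, adjusted p = 5.1e-08) and 2.37-fold with the combination (1.25, adjusted p = 2.1e-06), while the JQ1 change was 0.19 (adjusted p = 0.27), with a 95% interval of −0.03 to 0.42. The combination call rests on the scaling, since with the arrays scaled to 49 ribosomal protein genes its change was 0.95.

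PTGS2, the inducible cyclooxygenase, had the widest range of the 9 genes, 4.37 between its highest and lowest treatment means. The signals were 4.86, 4.83 and 4.86 with the combination, 7.41, 7.47 and 7.83 with mocetinostat, 3.44, 3.08 and 3.06 with JQ1 and 3.58, 3.33 and 3.49 with DMSO. The JQ1 mean (3.20) and the DMSO mean (3.47) lay under background, and their arrays overlapped. Mocetinostat arrays stood about 4 log2 units above DMSO, and the combination arrays lay apart from both. In the combination PTGS2 was 2.61-fold above DMSO (log2 change 1.38, SE 0.14, adjusted p = 9.1e-06). These changes are measured against a DMSO signal that does not stand out from background, and with background in its place they were 1.30 with the combination and 4.02 with mocetinostat.

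**Figure D2:**
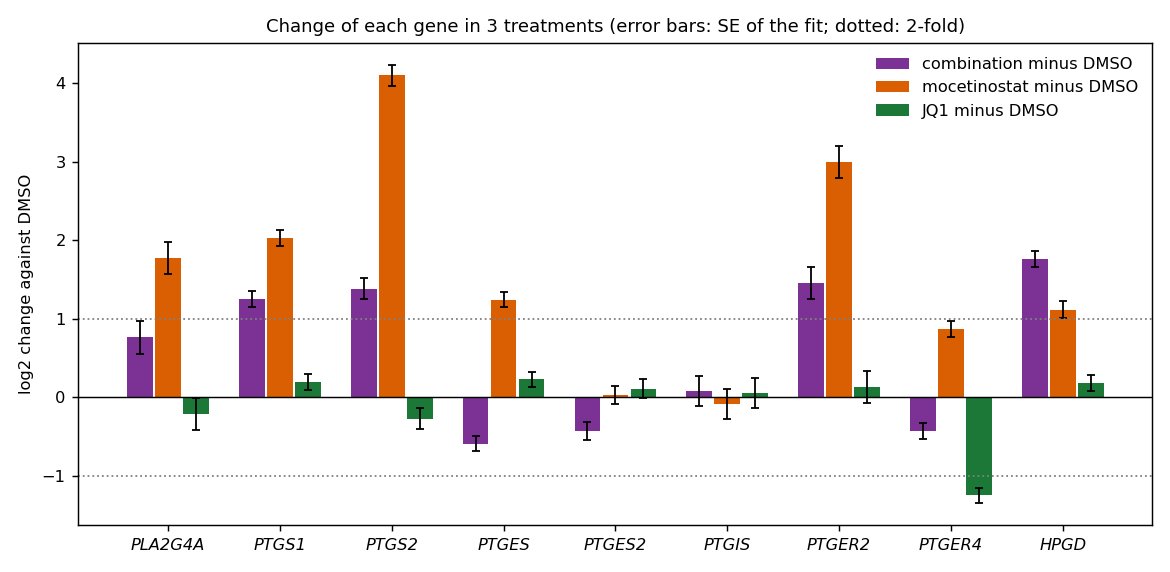
Log2 change against DMSO (vertical axis) of each gene (horizontal axis) with the combination, mocetinostat and JQ1, 3 arrays each. Bars are the changes, error bars the SE of the limma fit and dotted lines mark 2-fold. PTGER4 is the gene whose JQ1 bar passes the lower line (−1.25), and HPGD has a higher bar with the combination (1.76) than with mocetinostat (1.12).

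PTGES, the microsomal synthase that is coupled to PTGS2 in many cells, followed another order than the cyclooxygenases. The signals were 7.86, 7.73 and 7.88 with the combination, 9.57, 9.63 and 9.77 with mocetinostat, 8.74, 8.67 and 8.52 with JQ1 and 8.33, 8.44 and 8.47 with DMSO. The combination arrays were thus the lowest of the 4 treatments, and no pair of treatments overlapped. PTGES rose 2.37-fold with mocetinostat (log2 change 1.24, SE 0.10, adjusted p = 1.7e-06). With the combination it lay 0.59 below DMSO on the log2 scale (adjusted p = 0.00054), which does not reach 2-fold. The JQ1 change was 0.23 (adjusted p = 0.15).

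PTGES2, a second membrane-bound synthase of prostaglandin E2, was not called in any comparison. Its signals were 6.87, 6.98 and 7.24 with the combination, 7.59, 7.30 and 7.57 with mocetinostat, 7.63, 7.59 and 7.49 with JQ1 and 7.40, 7.53 and 7.44 with DMSO. The 3 combination arrays were below all others, by 0.43 in the mean against DMSO (adjusted p = 0.017), and the other treatments overlapped. The 95% interval of the mocetinostat change was −0.23 to 0.29.

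PTGIS, the prostacyclin synthase, was at background in all 4 treatments. Its signals were between 3.14 and 3.89 on every array, the treatment means lay between 3.36 and 3.52, and all treatments overlapped. No change can be read from this probe set.

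PTGER2 and PTGER4 encode EP2 and EP4, receptors for prostaglandin E2 that raise cyclic AMP. PTGER2 was called higher with mocetinostat and with the combination, and PTGER4 was called lower with JQ1. PTGER2 signals were 5.67, 5.60 and 6.15 with the combination, 7.28, 7.33 and 7.42 with mocetinostat, 4.69, 4.0 and 4.76 with JQ1 and 4.26, 4.57 and 4.21 with DMSO. The mocetinostat arrays were the highest, the combination arrays were between, and the JQ1 and DMSO arrays overlapped. PTGER2 rose 7.96-fold with mocetinostat (2.99, SE 0.20, adjusted p = 6e-07) and 2.75-fold with the combination (1.46, adjusted p = 0.00017), and the JQ1 change was 0.14 with a 95% interval of −0.32 to 0.59.

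PTGER4 signals were 6.59, 6.57 and 6.74 with the combination, 7.90, 7.93 and 7.97 with mocetinostat, 5.91, 5.80 and 5.75 with JQ1 and 7.12, 7.17 and 6.90 with DMSO. No pair of treatments overlapped, and JQ1 gave the lowest arrays. JQ1 lowered PTGER4 by 1.25 on the log2 scale (2.37-fold, SE 0.10, adjusted p = 4.2e-06). The mocetinostat change was 0.87 (adjusted p = 3.7e-05) and that of the combination −0.43 (adjusted p = 0.0055), both under 2-fold.

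HPGD, which inactivates prostaglandin E2, was the only member above background with its highest mean in the combination. The signals were 5.00, 4.91 and 5.12 with the combination, 4.36, 4.52 and 4.23 with mocetinostat, 3.46, 3.44 and 3.39 with JQ1 and 3.35, 3.12 and 3.28 with DMSO. The JQ1 and DMSO means were under background, and no pair of treatments overlapped. HPGD rose 3.38-fold with the combination (1.76, SE 0.10, adjusted p = 1.3e-07) and 2.17-fold with mocetinostat (1.12, adjusted p = 7.8e-06). The difference between the combination and mocetinostat, 0.64 (adjusted p = 0.0014), was under 2-fold. With the arrays scaled to ribosomal protein genes the mocetinostat change was 1.00, just under the 2-fold limit. With background in place of the DMSO mean the log2 changes were 1.46 with the combination and 0.82 with mocetinostat, so the mocetinostat rise does not reach 2-fold above background.

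Set directly against mocetinostat alone, the combination lowered 5 of the 9 genes and raised 0, where 1.74% of all probe sets were called lower and 1.18% higher. Over all genes the shares were 2.68% lower and 1.22% higher. The 5 were PTGS2 (log2 change −2.72, SE 0.14, adjusted p = 2.7e-07), PTGES (−1.84, SE 0.10), PTGER2 (−1.53, SE 0.20), PTGER4 (−1.30, SE 0.10) and PLA2G4A (−1.01, SE 0.21). On the linear scale this is 6.57-fold for PTGS2 and 3.57-fold for PTGES. PLA2G4A passed narrowly (adjusted p = 0.0062). It was no longer called when any 1 of the combination arrays was left out (−0.98 to −1.06), nor without mocetinostat replicate 2, its highest array (−0.79), or mocetinostat replicate 3 (−1.06), nor when only these 2 treatments were fitted (−1.01) or after repeated quantile normalization (−0.96). PTGS1 was 0.79 lower (adjusted p = 0.00031), under 2-fold. The median of the 9 genes was −1.01, against 0.02 over all probe sets. Against JQ1 alone the combination raised 4 of the 9 and lowered 0 (all probe sets 3.16% and 1.93%, all genes 4.46% and 3.23%). The 4 were PTGS2 (1.66), HPGD (1.58), PTGER2 (1.32) and PTGS1 (1.05). The JQ1 means of PTGS2 (3.20) and HPGD (3.43) were under background (3.66), and with background in their place the changes were 1.19 for PTGS2 and 1.35 for HPGD. PTGER2 was not called when only these 2 treatments were fitted (1.32), which left 3 genes. PTGES was lower with the combination than with JQ1 in all arrays, by 0.82 on the log2 scale (adjusted p = 7.9e-05), under 2-fold. The PTGS1 value was 0.98 without combination replicate 3 and 0.86 with ribosomal scaling, and was not called in either case. PLA2G4A, at 0.98, was called without JQ1 replicate 3 (1.16) and with the final number of the titles as a block (1.11). The JQ1 mean of PLA2G4A (3.07) was also under background, and with background in its place the change was 0.39.

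If the log2 changes of the single treatments simply added up, the combination would reach the sum of both, and the departure from that sum was tested as the interaction term of the fit. Of the 9 genes 3 were called as departing downwards and 0 upwards (all probe sets 1.75% and 1.99%, all genes 2.91% and 3.39%). The median departure was −0.80, against −0.01 over all probe sets. PTGS2 would have reached 7.29 and was measured at 4.85 (departure −2.44, SE 0.19, adjusted p = 1.2e-05). PTGES would have reached 9.89 and was measured at 7.82 (−2.07, SE 0.14, adjusted p = 3.7e-06). PTGER2 would have reached 7.48 and was measured at 5.81 (−1.67, SE 0.29, adjusted p = 0.003). For each of the 3 genes all combination arrays lay under the summed level. JQ1 given alone had moved PTGES and PTGER2 by less than 2-fold. For PTGS2 the JQ1 and DMSO means were both under background, so a fall with JQ1 alone could not have been seen. A fall as large as that of the combination against mocetinostat (−2.72) would leave no departure. Whether PTGS2 departs from the sum, and by how much, therefore rests on that unmeasured step. With the final number of the titles as a block the count was 2 of 9 (PTGS2 and PTGES), and PTGER2 (−1.45) was no longer called. Put the other way round, mocetinostat changed PTGES by −0.82 in the presence of JQ1 and by 1.24 in its absence.

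Other members stayed nearer to the sum. PTGS1 departed by −0.98 (SE 0.15, adjusted p = 0.0011), just under 2-fold. It passed 2-fold, at −1.004 to −1.054, without combination replicate 3, mocetinostat replicate 3, JQ1 replicate 1, JQ1 replicate 2 or DMSO replicate 2. It was also called after repeated quantile normalization (−1.03) and with ribosomal scaling (−1.05). PLA2G4A departed by −0.80 (SE 0.29, adjusted p = 0.13). PTGER4, the gene that JQ1 lowers by itself, had a departure of −0.05 with a 95% interval of −0.36 to 0.25, and JQ1 changed it by −1.30 with mocetinostat present and by −1.25 without. HPGD lay above its sum by 0.46 (SE 0.15, adjusted p = 0.075), and all 3 combination arrays were above the summed level. For PLA2G4A and HPGD the JQ1 and DMSO means were under background. Whether they depart, and by how much, therefore rests on an unmeasured JQ1 step.

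**Figure D3:**
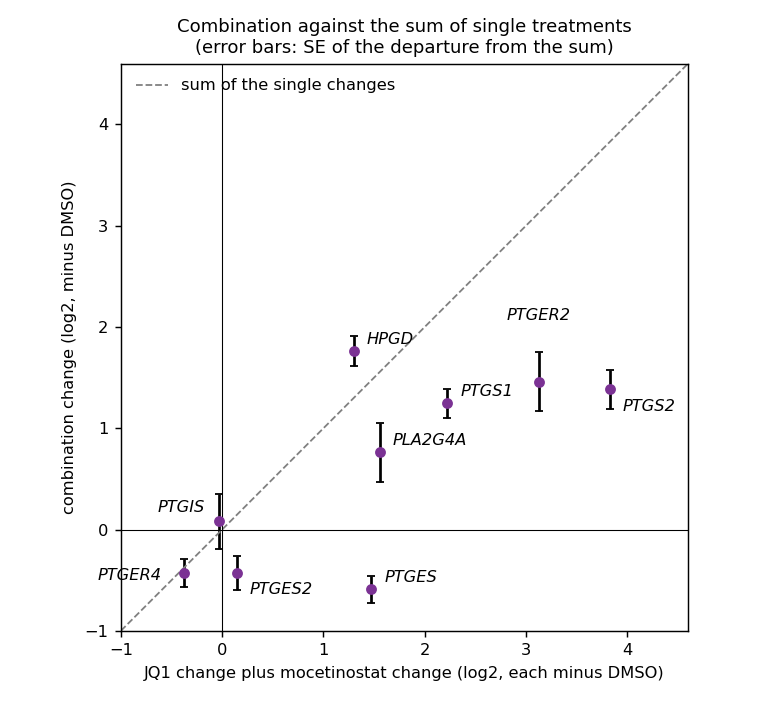
Log2 change of the combination against DMSO (vertical axis) set against the sum of the JQ1 and mocetinostat changes against DMSO (horizontal axis) for the 9 genes. Points are genes, error bars the SE of the departure, and the dashed line marks equality. PTGS2 (departure −2.44), PTGES (−2.07) and PTGER2 (−1.67) lie farthest below the line, PTGER4 lies on it (−0.05) and HPGD above it (0.46).

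Across the 12 arrays the 4 genes PLA2G4A, PTGS1, PTGS2 and PTGER2 had similar profiles. The highest correlations of log2 signals were those of PTGS1 with PTGER2 (r = 0.981) and of PTGS2 with PTGER2 (r = 0.970), followed by PTGS1 with PTGS2 (r = 0.949). The lowest was that of PTGES2 with HPGD (r = −0.712). The arrays fall into 4 treatments, so these values describe the treatment pattern and carry no test.

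Among 5046 genes whose treatment means span at least 1 log2 unit, the profiles most like PTGS2 were those of PI3, a protease inhibitor of epithelia (r = 0.994), ABI3BP (r = 0.994) and IGFL1 (r = 0.993). PI3 changed by 2.59 with the combination, 6.64 with mocetinostat and 0.15 with JQ1. Closest to PTGS1 were ABTB2 (r = 0.993), LINC01203 and PMEPA1, and closest to PTGER2 were TM2D2 (r = 0.985), SCIN and RASSF10. PLA2G4A was nearest to TMEM61 (r = 0.977), GFRA1 and TMEM132A. For PTGES they were PPTC7 (r = 0.978), C3orf52 and LIPH, a phospholipase that was likewise lower with the combination (−1.09) and higher with mocetinostat (1.36). PTGER4 was most like MATN3 (r = 0.985), the adhesion molecule ICAM1 (r = 0.985) and the cytokine IL6 (r = 0.984). IL6 changed by −1.31 with the combination, 2.52 with mocetinostat and −2.78 with JQ1. HPGD was most like MT1DP (r = 0.989), POR, the electron donor of cytochrome P450 enzymes (r = 0.988), and ARC (r = 0.988), each of them highest with the combination.

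Of 52 other genes of arachidonic acid metabolism 45 were measured. With the combination 7 were called higher and 3 lower than in DMSO, with mocetinostat 6 and 1, and with JQ1 1 and 1. Over all genes the shares called higher and lower were 7.06% and 8.11% with the combination, 7.08% and 5.5% with mocetinostat, and 2.14% and 4.51% with JQ1. The numbers called lower were thus near or under the background share, as was the number called higher with JQ1. The median log2 changes of the 45 genes were 0.04, 0.11 and −0.01. The 7 of 45 called higher with the combination and the 6 of 45 with mocetinostat stand against shares of 7.06% and 7.08%. These differences were not tested, and the genes named from these lists are single genes. Among 15 genes of arachidonate supply the combination raised 3 and lowered 2, mocetinostat raised 1 and JQ1 raised 1. The secreted-type phospholipase PLA2G12A rose with the combination (1.26, SE 0.09) and with mocetinostat (1.27), and the lysosomal phospholipase PLA2G15 with the combination (1.17, SE 0.10) and with JQ1 (1.20). ANXA1, known as an inhibitor of phospholipase A2, had means of 10.9 with the combination and 12.1 with DMSO and fell by 1.21 (SE 0.09, adjusted p = 1.3e-06). MGLL, the lipase that frees arachidonic acid from 2-arachidonoylglycerol, fell by 1.40 with the combination (SE 0.14).

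Of the 9 other prostanoid synthases and reductases, mocetinostat lowered CBR3, a carbonyl reductase (−1.21, SE 0.20), and the combination raised PTGR1, which reduces the products of HPGD (1.22, SE 0.10). The 7 receptors for other prostanoids or of the EP1 and EP3 type gave 0 calls against DMSO in the 3 treatments. In the direct comparison of the combination with JQ1, TBXA2R, the thromboxane receptor, was higher by 1.04 (named after its value was seen). Among 3 transporters, SLCO2A1, which takes prostaglandins up, rose with mocetinostat (1.41, SE 0.16) and had a change of 0.92 with the combination. ABCC4, which exports prostaglandin E2, was lowered by the combination (−1.46, SE 0.11, adjusted p = 8e-07).

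The lipoxygenase branch uses the same arachidonic acid to make leukotrienes and hydroxy fatty acids. Of its 11 measured genes 3 rose with the combination, 4 rose with mocetinostat and 1 fell with JQ1, where the shares over all genes were 7.06%, 7.08% and 4.51%. The JQ1 count is close to its share. ALOX5, the enzyme of leukotriene synthesis, rose with the combination (1.30, SE 0.08) and mocetinostat (1.07), and its change with JQ1 was 0.77. Its partner ALOX5AP fell with JQ1 (−1.45, SE 0.16), and the combination change was −0.99. The epidermal lipoxygenases ALOX12B and ALOXE3 rose with both. ALOX12B changed by 1.29 with the combination and 2.21 with mocetinostat, and ALOXE3 by 1.87 with the combination and 1.21 with mocetinostat. The DMSO mean of ALOX12B (3.547) did not stand out from background (3.549), so its changes and its departure are measured from the floor. Of the 11 genes 2 departed downwards from the sum and 0 upwards, where the shares over all genes were 2.91% and 3.39%. ALOX12B departed by −1.43 (SE 0.21, adjusted p = 0.001). LTA4H, named after its value was seen, departed by −1.41 (SE 0.12, adjusted p = 1.6e-05).

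The mRNAs of PTGS2 and of many cytokines hold AU-rich elements, which are bound by proteins that shorten or lengthen the life of the message. Of 8 such proteins measured, 1 rose and 1 fell with the combination, 1 rose and 2 fell with mocetinostat, and 1 rose and 1 fell with JQ1. Against the shares over all genes (2.14% to 8.11%), counts of 1 in a list of 8 do not set the list apart. The 2 of 8 that fell with mocetinostat stand against a share of 5.5%, and this difference was not tested. ZFP36 (tristetraprolin), which promotes decay of these mRNAs, had mean signals of 11.2 with the combination, 9.20 with mocetinostat, 9.03 with JQ1 and 7.33 with DMSO. It rose by 3.91 with the combination (SE 0.11, adjusted p = 4.2e-10), 1.88 with mocetinostat and 1.71 with JQ1, and was 2.04 higher with the combination than with mocetinostat. Its departure from the sum was 0.33 (adjusted p = 0.26). TIA1, a translational repressor, fell with the combination (−1.15, SE 0.14) and with mocetinostat (−1.03). RBM3, a cold-induced RNA-binding protein, fell with mocetinostat (−1.04), and CELF2 fell with JQ1 (−1.35). The part of these proteins in the PTGS2 signal was not tested.

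**Figure D4:**
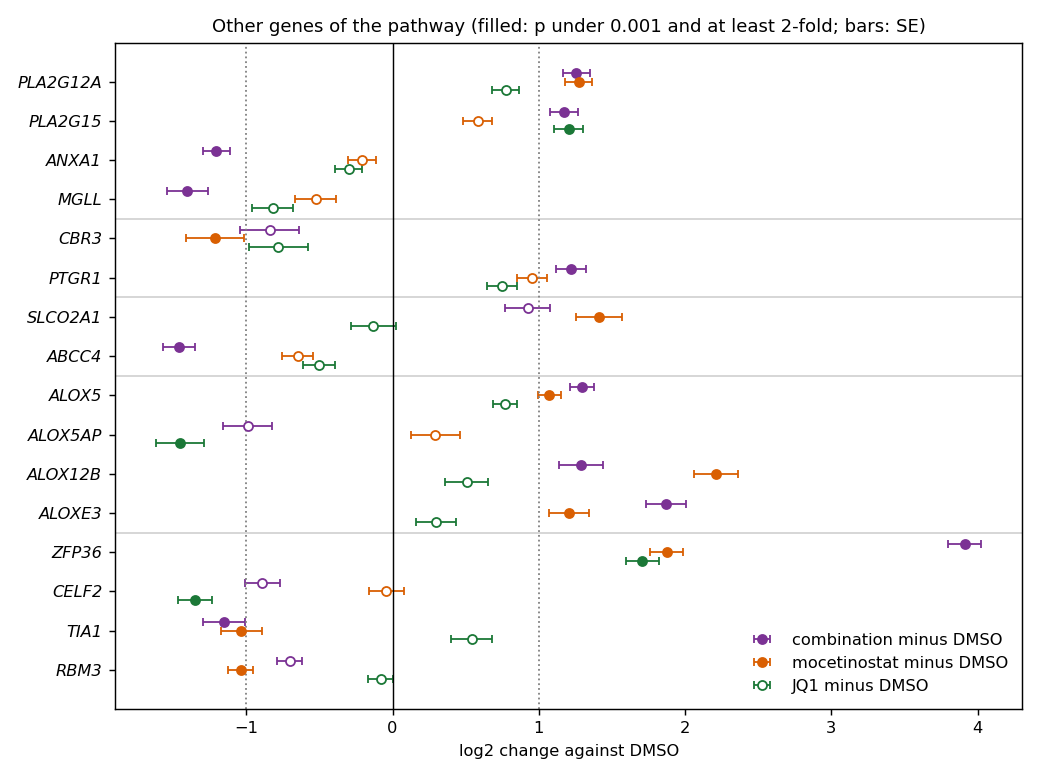
Log2 change against DMSO (horizontal axis) of the named other genes of the pathway (vertical axis), grouped from top to bottom into arachidonate supply, synthases and reductases, transport, lipoxygenases and AU-rich element binding. Colours are treatments (3 arrays each), error bars the SE, dotted lines 2-fold, and filled points are called. The combination point of ZFP36 (3.91) is the farthest to the right, and those of ABCC4 (−1.46) and MGLL (−1.40) the farthest to the left among combination points.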

How the data were processed

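Total RNA of the 12 cultures was hybridized to Affymetrix Human Gene 2.1 ST arrays. The authors summarized the probes by RMA and deposited log2 signals for 53617 probe sets, which were used as they stand. A shift common to most transcripts is removed by the quantile step of RMA, whose version is not given in the sources used here. Symbols came from the platform annotation, updated through RefSeq, and 23866 probe sets had 1 symbol, 1852 several and 27899 none. A gene was given by its probe set with the highest mean.

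A mean per treatment was fitted to all 12 arrays with limma 3.58.1 in R 4.3.3 (8 residual and 3.10 prior degrees of freedom), after the script had been tested on simulated data. Alternatives were another call rule, a filter on dim probe sets, repeated quantile normalization, ribosomal scaling, a mean-variance trend, the replicate number or the title's final number as a block, only the groups compared, each array left out, and, added after seeing the data, background in place of dim means. Named are the members, up to 4 genes per list that were called against DMSO, and for each called member the 3 most correlated genes. Genes, lists and tests were chosen with earlier results of these data known. Promoter sequences are those of RefSeq (GRCh38.p14). The precision is limited by 3 arrays per treatment.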

Additional observations from a re-analysis of the deposited data

Results flagged for a closer look

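By the interaction term of the limma fit, the effect of mocetinostat was called different with and without JQ1 for 3 of the 9 genes. PTGS2 changed by 1.66 with JQ1 present and by 4.10 without it, a difference of −2.44 (log2, SE 0.19). The PTGS2 means with JQ1 (3.20, background 3.66) and with DMSO (3.47, background 3.55) were both under background. Both effects are therefore measured from a floor, and whether they differ, and by how much, is uncertain. For PTGES the effects were −0.82 with JQ1, under 2-fold, and 1.24 without, a difference of −2.07 (SE 0.14). The combination arrays all lay below the JQ1 arrays, and the mocetinostat arrays all lay above the DMSO arrays. For PTGER2 they were 1.32 with JQ1 and 2.99 without, a difference of −1.67 (SE 0.29). This one was no longer called with the final number of the titles as a block (−1.45), which left PTGS2 and PTGES, 2 of the 9. The effect of JQ1 on PTGS1 was −0.79 with mocetinostat present and 0.19 without it, and the arrays of the groups compared did not overlap in either case. The difference of −0.98 (SE 0.15, adjusted p = 0.0011) did not reach 2-fold.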

How the results depend on the processing

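The alternatives other than the background setting below comprised 21 settings, 12 of which leave out 1 array, and gave 1065 values for the 9 genes and 6 comparisons. Of these, 1020 kept their direction and their side of the filter, 13 lost the call, 10 gained it and 22 changed sign. Many of the 1065 values could not change sign, so the 1020 do not measure stability. The dim filter, replicate block, trend and fits of only the groups compared leave the log2 changes as they are. Using all probe sets of a gene repeats the main values. Leaving out an array leaves the log2 change of comparisons without its treatment as it is. With the call set by an adjusted p under 0.05 at any fold, the combination lowered 3 genes against DMSO (PTGES, PTGES2 and PTGER4), 2 were lower than with JQ1 (PTGES and PTGES2) and 1 was higher than with mocetinostat (HPGD), where the filter gave 0 in each case. Of all probe sets 13.2%, 9.97% and 6.8% passed this looser rule in those directions. Scaling to ribosomal protein genes shifted the median of all probe sets by −0.29 for the combination, −0.12 for mocetinostat and −0.10 for JQ1, and made 1 gene lower with the combination than with JQ1 (PTGES, −1.01).

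Most sign changes belong to PTGIS, which is at background. Its values with ribosomal scaling were −0.22 for the combination, −0.049 for JQ1, −0.17 for the combination against JQ1 and −0.012 against mocetinostat, and with the title number as a block −0.072 for the combination and −0.25 for JQ1. PTGES2 was −0.088 with mocetinostat after ribosomal scaling, and the PTGER4 departure was 0.036 with the title number as a block, under which the PTGER2 departure (−1.45) was no longer called.

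With 1 array left out at a time the counts were 6 higher with mocetinostat, 4 higher with the combination and 1 lower with JQ1 throughout. They were 4 to 5 lower with the combination than with mocetinostat, 3 to 5 higher than with JQ1, and 3 to 4 for the downward departure. PTGIS ranged from −0.073 to 0.30 for the combination, −0.24 to 0.14 for mocetinostat, −0.10 to 0.28 for JQ1, −0.11 to 0.11 for the combination against JQ1 and −0.11 to 0.26 for the departure. PTGES2 ranged from −0.019 to 0.12 with mocetinostat, PTGER2 from −0.00255 to 0.37 with JQ1 and the PTGER4 departure from −0.11 to 0.030.

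Arrays with the same replicate number did not deviate together (18 pairs, r from −0.09 to 0.04, 0 over 0.1), so no pairing by number was visible. These values cover all probe sets, with array medians of 3.58 to 3.66 near background, so a weak pairing could be missed. With the replicate block the counts stayed at 6 higher with mocetinostat, 4 higher with the combination and 1 lower with JQ1. A filter on dim probe sets left 26826 probe sets and 8 members, without PTGIS. Using all probe sets of a gene changed nothing, since each member has 1. With only the groups compared, PTGER2 was not called for the combination against JQ1 (1.32, 3 genes). Setting means under background to background, a choice made after seeing the data, ended 1 call, HPGD with mocetinostat (0.82). Here only the 2-fold limit was applied again, with the p values of the main fit kept. The departures from the sum were not recalculated, so this setting does not bear on them. The cause of the changes was not tested. The precision rests on 3 arrays per treatment, and the dim DMSO and JQ1 signals of PTGS2, HPGD and PLA2G4A limit what can be said of their fold changes and departures.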
